A study of Mus musculus with 8 samples.

Results

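The genes described here encode the proteins of the mitochondrial ribosome. They were taken as every row of the deposited count table whose Ensembl identifier maps, in GENCODE M21, to a protein-coding gene with a symbol made of Mrpl or Mrps and a number. This gave 78 genes of 55401, 49 named for the large subunit (Mrpl) and 29 for the small subunit (Mrps). The choice used names alone and no measured value. The genes lie on 17 chromosomes.

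The mitochondrial ribosome translates the few proteins encoded in mitochondrial DNA, all of which are core parts of the respiratory chain and the ATP synthase. Its protein genes are in the nucleus, and their products are made in the cytoplasm, imported and assembled on ribosomal RNA that is transcribed from mitochondrial DNA. Some of these proteins have bacterial counterparts, and others are found only in mitochondria. Male germ cells of the fetal testis, called prospermatogonia, are arrested in the cell cycle at this stage.

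RNA was sequenced from mouse prospermatogonia at E17.5 (embryonic day), in 4 libraries labelled KO (Tet1-/-) and 4 labelled WT (Tet1+/+), all of batch 1. The libraries were made from 5 ng of total RNA after depletion of ribosomal RNA. The labels give neither the kind of Tet1 allele, nor how the cells were isolated, nor whether each library is 1 animal, so p-values measure the spread between these libraries, which may be technical. The study concerns a role of TET1 apart from its enzyme activity in setting up new DNA methylation in male germ cells.

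Tet1 itself was higher in the knockouts by label, at 124 ± 33.4 CPM (counts scaled to a common library size with edgeR's TMM factors; SD, n = 4) in the libraries labelled KO and 31.9 ± 1.95 CPM (SD, n = 4) in those labelled WT, which is the opposite of what a KO label would lead one to look for (log2 difference 1.97, SE 0.178, edgeR adjusted p = 3.03e-06). A single number per gene does not show whether an exon is missing, so every direction below refers to the labels as deposited. Libraries labelled KO held 13820764 to 19947912 counts, and libraries labelled WT 14732396 to 20115250. Germ cell markers (6 genes, among them Ddx4 and Dazl) summed to 1569 to 1942 CPM in the libraries labelled KO and 1512 to 1796 CPM in those labelled WT. Summed markers of Sertoli cells (6 genes) were at 23.0 to 37.5 CPM in the libraries labelled KO and 15.2 to 27.4 CPM in those labelled WT, of peritubular and stromal cells (5 genes) at 79.9 to 96.8 CPM (KO) and 81.1 to 91.5 CPM (WT), of endothelium (4 genes) at 55.4 to 69.6 CPM (KO) and 56.6 to 67.8 CPM (WT), and of macrophages and blood (5 genes) at 4.28 to 7.0 CPM (KO) and 4.81 to 8.93 CPM (WT). The 5 Leydig cell markers summed to 1751 CPM in KO 4, against 12.5 to 19.0 CPM in the other libraries labelled KO and 13.2 to 28.0 CPM in those labelled WT. No marker was at 0 in all libraries. Behind these sums single markers differed (edgeR adjusted p under 0.05). Germ cell and Sertoli markers had 2 higher and 1 lower each, and Leydig markers 4 higher and 0 lower. Peritubular and stromal markers had 1 higher and 1 lower, endothelial 1 and 3, and macrophage and blood 1 and 2. Over all genes tested, 25.3% were higher and 28.2% lower. Without KO 4, 40 of the genes were higher and 4 lower, against 39 and 7 with it; the part of the other cell types in the results was not tested. In bulk RNA, fewer cells of a type and less RNA per cell cannot be told apart.

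More of the genes rose in the libraries labelled KO than fell. Of 78 genes, 77 passed the low-count filter. At an adjusted p under 0.05 (edgeR, Benjamini-Hochberg over all 24005 genes tested), 39 were higher, 7 lower and 31 did not pass. Over all genes tested, 25.3% were called higher and 28.2% lower, and over protein-coding genes 31.0% and 29.8%. The median log2 difference (KO minus WT) was 0.37 for the mitochondrial ribosomal genes, -0.05 for all genes and 0.00 for protein-coding genes. The differences ran from -0.97 to 2.39. Of the 39 higher genes, 17 had a log2 difference of 1 or more, and none of the 7 lower genes reached -1.

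In the range of reads that held most of these genes, the gap to other coding genes was smaller. Most of the mitochondrial ribosomal genes, 49 of the 77, had a mean log2 CPM from 4 to 6. Of these 49, 27 were higher (55.1%) and 3 lower (6.12%). Among all protein-coding genes in the same range, 47.0% were called higher and 19.8% lower, with a median log2 difference of 0.28 against 0.37 for the 49. The share of higher genes was therefore near the background at this read level, and the share of lower genes was below it; neither gap was tested.

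The balance also moved with the scaling. Under upper-quartile scaling the median of all genes moved by -0.24, with 28 mitochondrial ribosomal genes higher and 17 lower. Under scaling on 80 cytoplasmic ribosomal protein genes it moved by -0.17, with 29 higher and 13 lower. Of all calls across genes, 31.2% and 34.9% were then higher, against 47.3% with TMM. As a share of all counts, with no scaling factor, the 78 genes made up 0.238% to 0.256% in the libraries labelled KO and 0.233% to 0.246% in those labelled WT, which overlap.

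**Figure D1:**
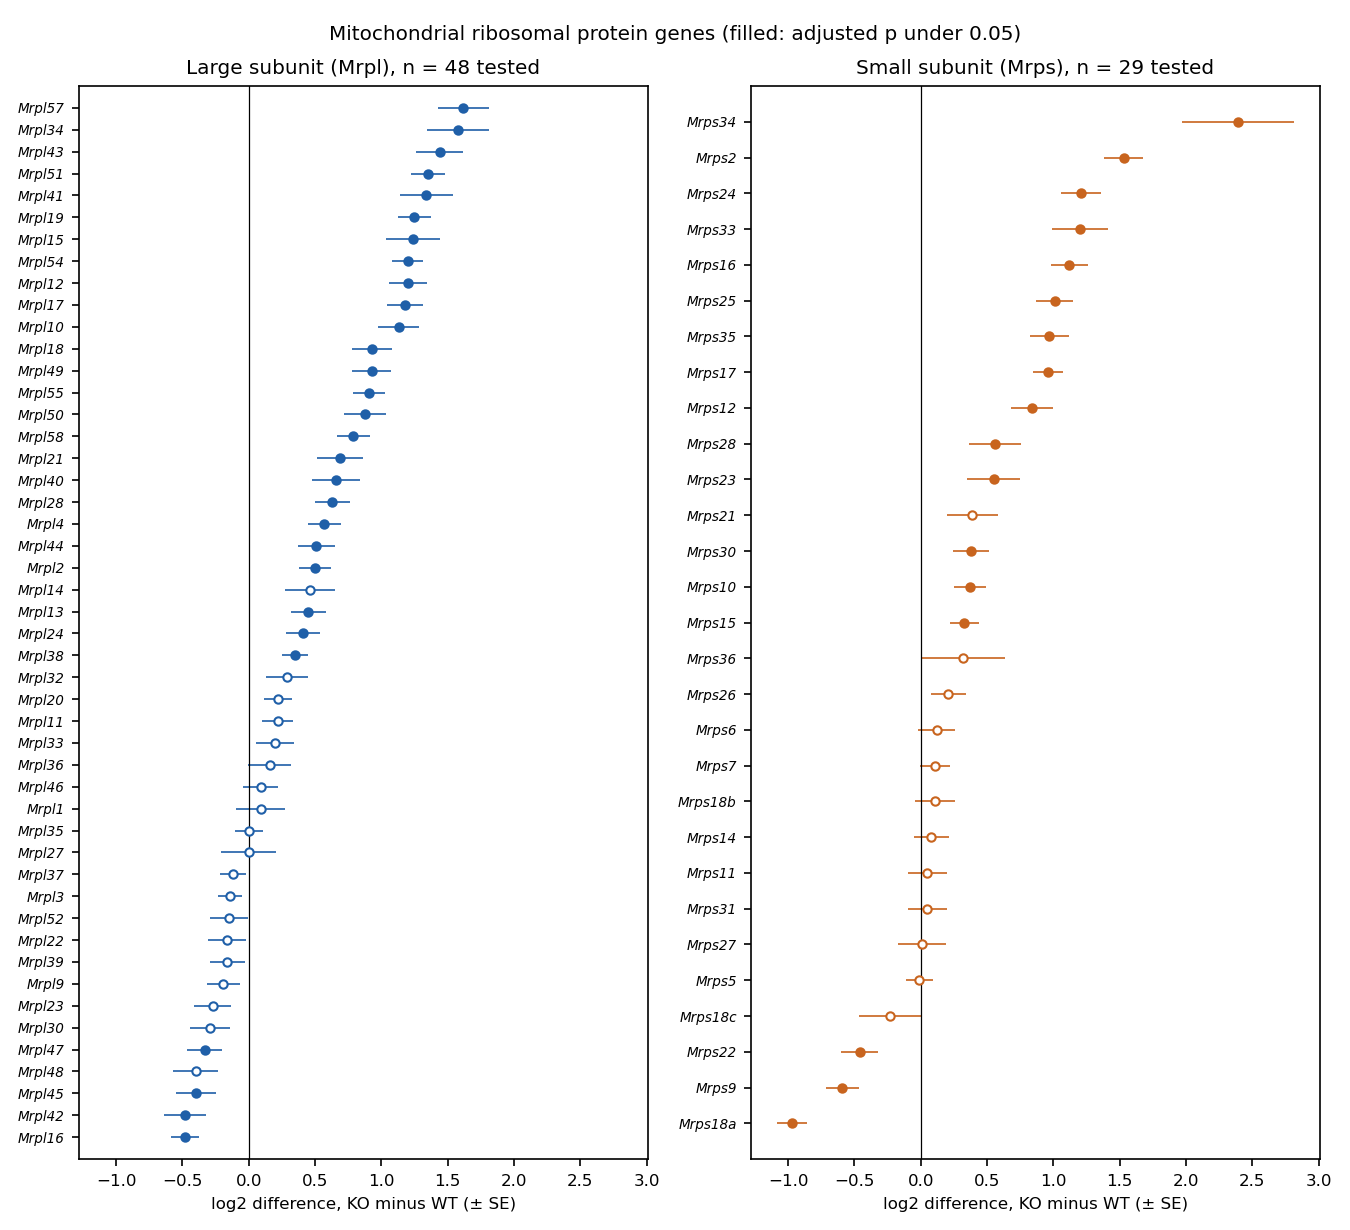
Log2 difference (KO minus WT, horizontal axis, with SE bars) of the 77 tested genes, large subunit at left and small subunit at right, ordered by size; filled points have an edgeR adjusted p under 0.05. In both panels most points lie right of 0, and the lowest is Mrps18a at -0.97.

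Among large-subunit genes the 25 that were higher included proteins of the factor-binding stalk, the mobile arm that recruits translation factors. Mrpl12, the counterpart of the bacterial L7/L12 stalk protein, had 48.8, 63.8, 46.9 and 51.0 CPM in KO 1 to KO 4, against 20.4, 19.7, 23.2 and 28.3 CPM in WT 1 to WT 4. The groups did not overlap, and the log2 difference was 1.20 (SE 0.144, edgeR adjusted p = 2.34e-05). Mrpl10, which anchors the stalk, had 12.3 to 15.3 CPM in the libraries labelled KO and 6.2 to 7.55 CPM in those labelled WT, a log2 difference of 1.13 (SE 0.156, edgeR adjusted p = 7.14e-05). Mrpl11, at the stalk base, did not pass. It had 35.5 to 46.9 CPM in the libraries labelled KO and 31.8 to 37.6 CPM in those labelled WT, and these ranges overlap (log2 difference 0.22, edgeR adjusted p = 0.137).

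The large-subunit genes with the lowest p were a mixture of proteins with bacterial counterparts and proteins found only in mitochondria. Mrpl51, a protein found only in mitochondria, had 33.6, 28.6, 28.7 and 28.5 CPM in KO 1 to KO 4 and 13.0, 11.8, 10.8 and 11.3 CPM in WT 1 to WT 4 (log2 difference 1.35, SE 0.127, edgeR adjusted p = 4.07e-06). Mrpl54, also found only in mitochondria, averaged 36.2 ± 3.2 CPM in the libraries labelled KO and 15.8 ± 0.582 CPM in those labelled WT (SD, n = 4 each), a log2 difference of 1.20. Both genes were higher in every library labelled KO than in any labelled WT. Mrpl19 and Mrpl17, both with bacterial counterparts, rose by 1.25 and 1.18 on the log2 scale. Mrpl17 had 69.7 to 94.0 CPM in the libraries labelled KO and 29.2 to 42.9 CPM in those labelled WT. For Mrpl19, 36.0% of exon bases also belong to Gcfc2 on the opposite strand, and no source used here says whether counting used strand.

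The largest differences of the subunit were those of Mrpl57 and Mrpl34. Mrpl57, a small protein found only in mitochondria, had 23.1, 28.7, 24.7 and 27.9 CPM in KO 1 to KO 4, against 6.76, 6.16, 9.83 and 11.3 CPM in WT 1 to WT 4. Its log2 difference was 1.62 (SE 0.191, edgeR adjusted p = 2.12e-05). Mrpl34, which has a bacterial counterpart, averaged 8.6 ± 0.68 CPM in the libraries labelled KO and 2.87 ± 0.872 CPM in those labelled WT (SD, n = 4 each), and rose by 1.58. The groups were apart for both genes.

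Lower large-subunit genes numbered 4, and 3 of these calls were lost under at least 1 other setting or with a library left out. Mrpl16, which has a bacterial counterpart, had 28.7, 34.5, 34.2 and 32.2 CPM in KO 1 to KO 4, against 44.6, 45.7, 42.5 and 48.3 CPM in WT 1 to WT 4. All of the libraries labelled KO lay below all of those labelled WT (log2 difference -0.48, SE 0.107, edgeR adjusted p = 0.00209). Mrpl45, which holds the ribosome to the inner membrane beside the exit of the peptide tunnel, averaged 108 ± 16.8 CPM in the libraries labelled KO and 141 ± 28.7 CPM in those labelled WT (SD, n = 4 each). Its groups overlapped, its log2 difference was -0.40, and its edgeR adjusted p of 0.0401 reached 0.162 when a library was left out. Mrpl42, found only in mitochondria, fell by 0.48 on the log2 scale with overlapping groups (edgeR adjusted p = 0.0223, up to 0.0895 with a library left out). Mrpl47 passed narrowly at -0.33 (edgeR adjusted p = 0.0496, up to 0.171 with a library left out). Without KO 4, without WT 1 or without WT 3, only 1 large-subunit gene was called lower.

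The large-subunit genes nearest to no difference were Mrpl35 and Mrpl27, both with bacterial counterparts. Mrpl35 had 47.2 to 52.1 CPM in the libraries labelled KO and 47.2 to 58.0 CPM in those labelled WT, a log2 difference of -0.00 (SE 0.106). Mrpl27 had the same difference with an SE of 0.21 on far fewer reads, 5.23 to 8.34 CPM in the libraries labelled KO and 5.52 to 8.86 CPM in those labelled WT. A larger SE leaves room for a larger difference that these libraries could not show.

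**Figure D2:**
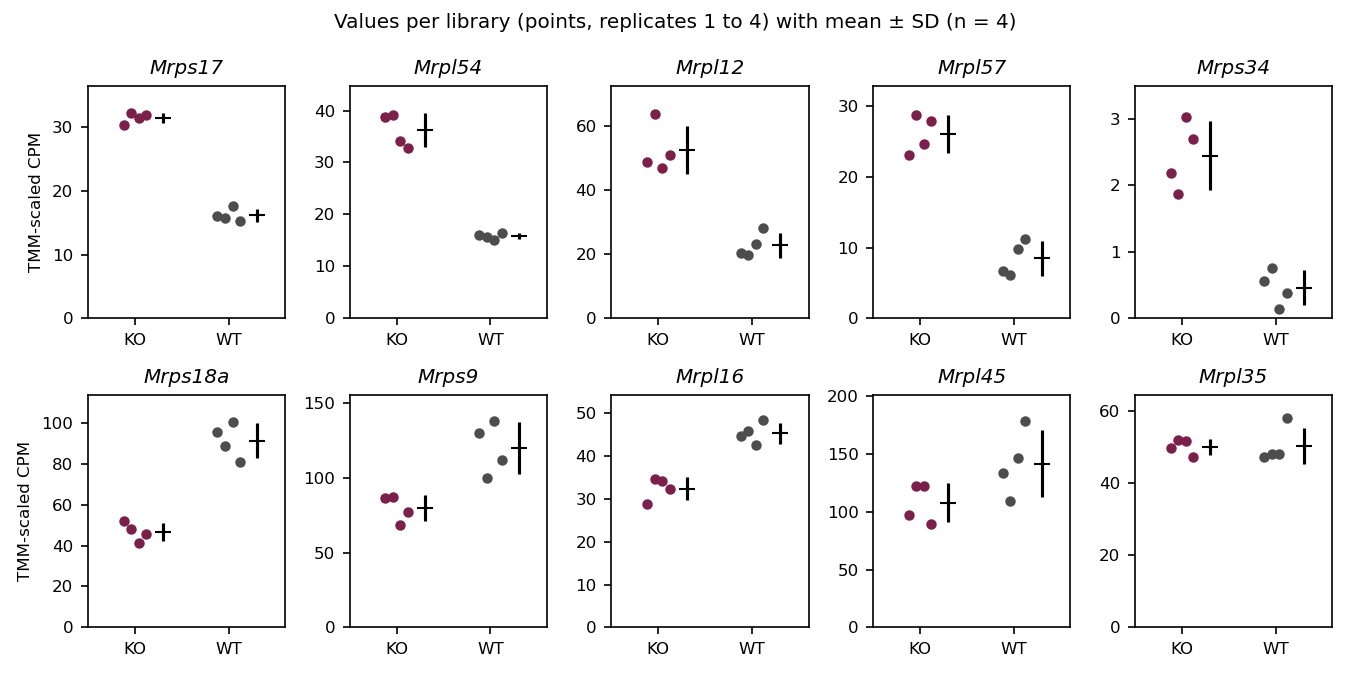
TMM-scaled CPM (vertical axis, from 0) of 10 genes in each library, KO left of WT, with the mean and SD of each group (n = 4). Groups are apart for the first 8 genes, from Mrps17 to Mrpl16; they overlap for Mrpl45 and Mrpl35.

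Small-subunit genes showed the same kind of picture, with 14 higher, 3 lower and 12 not passing of 29. Mrps17, which has a bacterial counterpart, had 30.4, 32.2, 31.4 and 32.0 CPM in KO 1 to KO 4 and 16.1, 15.8, 17.6 and 15.3 CPM in WT 1 to WT 4. The replicates lay close together, and the log2 difference was 0.96 (SE 0.113, edgeR adjusted p = 2.06e-05). Mrps2, also with a bacterial counterpart, had 20.3 to 27.9 CPM in the libraries labelled KO and 7.84 to 9.99 CPM in those labelled WT, and rose by 1.53 on the log2 scale (SE 0.149, edgeR adjusted p = 5.3e-06). Mrps24 rose by 1.21 and Mrps16 by 1.12 on the log2 scale; 15.4% of the exon bases of Mrps24 also belong to Urgcp. Mrps12, a protein of the decoding centre where codon and anticodon meet, averaged 32.1 ± 3.7 CPM in the libraries labelled KO and 18.0 ± 3.8 CPM in those labelled WT (SD, n = 4 each), a log2 difference of 0.84 (SE 0.155, edgeR adjusted p = 0.000615). All of these had groups that did not overlap.

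Some genes share annotated exon bases with another gene, and how reads in such bases were counted is not known. Mrps34, found only in mitochondria, had the largest difference of all 77 genes, 2.39 (SE 0.423, edgeR adjusted p = 0.000428), but on few reads. It had 2.19, 1.87, 3.03 and 2.7 CPM in KO 1 to KO 4, against 0.563, 0.755, 0.146 and 0.388 CPM in WT 1 to WT 4, or 149 and 33 counts in all. Of its exon bases, 63.4% also belong to Mapk8ip3 on the opposite strand and 37.0% to Nme3 on the same strand. Mrps25 rose by 1.01, and 69.8% of its exon bases also belong to Nr2c2 on the opposite strand. Mrpl53, a large-subunit gene, was the gene under the filter, with 1 count in KO 1, 1 count in WT 1 and 0 in the other libraries, where a count of 0 allows up to 3 counts, or 0.17 to 0.221 CPM in KO 2 to KO 4 and 0.146 to 0.194 CPM in WT 2 to WT 4. Another coding gene model on the same strand, Gm42688, covers 88.0% of its exon bases. In all, 12 of the 78 genes shared 10% or more of their exon bases with another coding gene. Of the 11 of these that were tested, 7 were higher (63.6%) and 1 lower (9.09%). Of the other 66 genes 32 were higher (48.5%) and 6 lower (9.09%). Over all protein-coding genes tested the shares were 31.0% and 29.8%. The 66 are not free of overlap, since some share bases with genes that are not protein-coding, among them Mrpl10 (14.1%) and Mrpl12 (13.1%).

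The largest fall of the 77 was that of Mrps18a. It had 51.9, 48.1, 41.2 and 45.7 CPM in KO 1 to KO 4, against 95.3, 88.8, 100.3 and 80.6 CPM in WT 1 to WT 4. The groups were far apart, with a log2 difference of -0.97 (SE 0.111, edgeR adjusted p = 1.74e-05), which is 0.512 of the level in the libraries labelled WT. Mrps18a is one of 3 mammalian paralogues of the bacterial protein S18, and in mammalian structures its product sits in the large subunit in spite of its name. The other two did not pass. Mrps18b averaged 12.3 ± 1.5 CPM in the libraries labelled KO and 11.4 ± 0.968 CPM in those labelled WT (SD, n = 4 each), a log2 difference of 0.11 (SE 0.152, edgeR adjusted p = 0.58). Mrps18c averaged 4.03 ± 1.03 CPM and 4.72 ± 0.797 CPM (SD, n = 4 each) in the libraries labelled KO and WT, a log2 difference of -0.23 (SE 0.238, edgeR adjusted p = 0.435). Of the exon bases of Mrps18b, 30.5% also belong to Gm16279 on the opposite strand. Of those of Mrps18c, 23.2% also belong to Gm43511 on the same strand. Neither of these other genes is annotated as protein-coding. Whether the 3 paralogues differ from each other in their response was not tested.

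Mrps9 and Mrps22 were the other small-subunit genes that were lower. Mrps9, which has a bacterial counterpart, had 86.5, 87.5, 68.9 and 77.0 CPM in KO 1 to KO 4, against 130.4, 99.9, 138 and 112 CPM in WT 1 to WT 4. All of the libraries labelled KO lay below all of those labelled WT (log2 difference -0.59, SE 0.124, edgeR adjusted p = 0.0015). Mrps22, found only in mitochondria, had 52.1 to 70.0 CPM in the libraries labelled KO and 64.5 to 96.6 CPM in those labelled WT. Its groups overlapped and its log2 difference was -0.46 (SE 0.137, edgeR adjusted p = 0.0124, 0.0617 without WT 3).

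By TMM-scaled CPM, which depends on the scaling, the groups were apart for 37 genes with the libraries labelled KO higher. They were apart for 4 with the libraries labelled KO lower, and overlapped for the other 36 of 77. Over all genes tested the shares with groups apart were 23.2% higher and 25.1% lower. Replicates were close, with a median coefficient of variation of 12.5% in the libraries labelled KO and 11.8% in those labelled WT. Libraries nevertheless differed across the whole set. KO 2 had the highest value of its group for 47 genes and KO 3 the lowest for 43, and WT 2 had the lowest of its group for 35.

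By symbol the large subunit stood higher relative to the small one in the libraries labelled KO, with groups apart. The groups stayed apart per kb of exon, and overlapped with genes placed by structure or given equal weight. Of tested large-subunit genes 52.1% were higher and 8.33% lower, with a median log2 difference of 0.43. The small subunit had 48.3% higher and 10.3% lower, with a median of 0.33. The summed level of large-subunit genes was 1722 ± 136 CPM in the libraries labelled KO and 1429.7 ± 80.5 CPM in those labelled WT (SD, n = 4 each). For small-subunit genes it was 902 ± 71.9 CPM in the libraries labelled KO and 852 ± 61.6 CPM in those labelled WT. No test was run on these sums, since they are scores over chosen genes.

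The log2 ratio of the large-subunit sum to the small-subunit sum, which no library scaling can change, was 0.90, 0.95, 0.96 and 0.92 in KO 1 to KO 4, against 0.66, 0.79, 0.70 and 0.85 in WT 1 to WT 4. The groups did not overlap, and the means differed by 0.18. Structures place the products of Mrps18a and Mrps30 in the large subunit, and that of Mrps36 in a dehydrogenase complex and not in the ribosome. With those 2 genes counted as large and Mrps36 left out, the ratio was 1.13, 1.17, 1.16 and 1.14 in KO 1 to KO 4, against 1.00, 1.16, 1.05 and 1.15 in WT 1 to WT 4. These groups overlapped, and the difference of the means was 0.06. Summed as CPM per kb of exon, the ratio was 1.24 to 1.29 in the libraries labelled KO and 1.02 to 1.19 in those labelled WT, with no overlap and a difference of 0.16. Mrps18a alone was 5.18% of the small-subunit sum in the libraries labelled KO and 10.7% in those labelled WT. With each gene given equal weight, as the mean of log2(CPM + 1), the difference of the means was 0.05, with 0.23 to 0.30 in the libraries labelled KO and 0.16 to 0.27 in those labelled WT, which overlap.

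**Figure D3:**
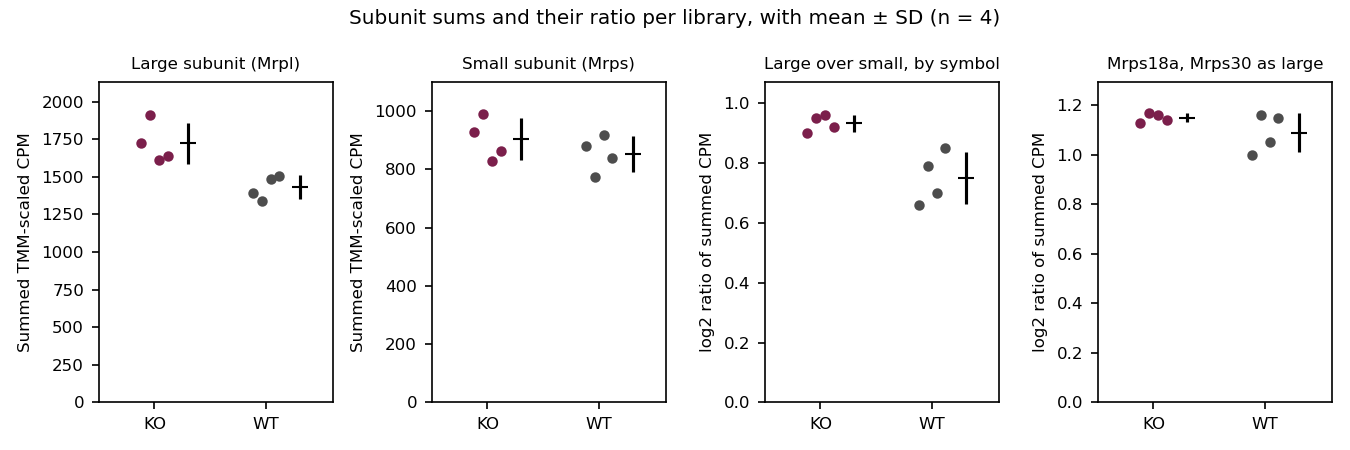
Summed CPM of the Mrpl and Mrps genes and log2 ratio of the 2 sums (vertical axes, from 0) in each library, KO left of WT, with mean and SD (n = 4). Groups are apart in the ratio by symbol (0.90 to 0.96 in KO, 0.66 to 0.85 in WT) and overlap once Mrps18a and Mrps30 are counted as large and Mrps36 is left out.

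Proteins with a bacterial counterpart and proteins found only in mitochondria were also set side by side. Of 48 genes with a bacterial counterpart, edgeR called 22 higher (45.8%) and 4 lower (8.33%), and their median log2 difference was 0.31. Of the 28 tested genes found only in mitochondria, it called 17 higher (60.7%) and 3 lower (10.7%), and their median was 0.53. Over all protein-coding genes tested the shares were 31.0% and 29.8%. For those with a mean log2 CPM from 4 to 6 they were 47.0% and 19.8%, with a median of 0.28. The share higher and the median of the class with bacterial counterparts were near the values for that range. The difference between these classes was not tested.

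The calls also differed between read levels, and no test was run on that. Of the 20 genes with a mean log2 CPM under 4, edgeR called 12 higher and 0 lower, against 16.4% and 41.1% of protein-coding genes under 4. Of the 8 at 6 or more, it called 0 higher and 4 lower, against 45.5% and 15.2% of protein-coding genes at that level. Both counts of 0 were also 0 at an unadjusted p under 0.05 and with DESeq2. These 8 were Mrpl45, Mrps5, Mrps9, Mrpl37, Mrpl3, Mrps22, Mrps18a and Mrpl39, and their log2 differences ran from -0.97 to -0.01. Mrps5 was among them, with 99.4 to 120.4 CPM in the libraries labelled KO and 97.6 to 117 CPM in those labelled WT. Spearman's rho between log2 difference and mean log2 CPM was -0.48 over the 77 genes, and -0.33 without these 8. Across all protein-coding genes it was 0.41. Per kb of exon, the rho over the 77 genes was -0.27. These correlations are across genes that share the same 8 libraries and are a description only.

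**Figure D4:**
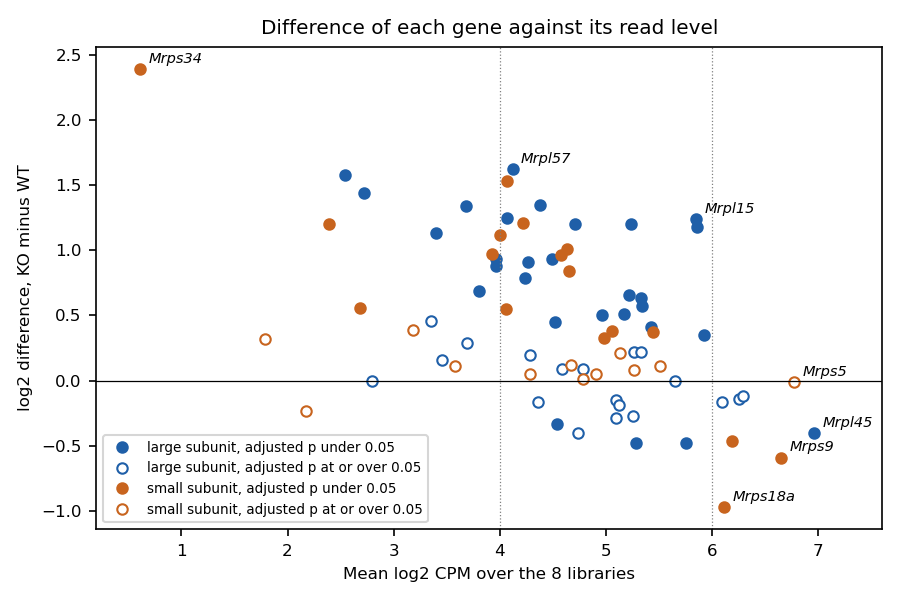
Log2 difference (KO minus WT, vertical axis) of each tested gene against its mean log2 CPM over the 8 libraries (horizontal axis); filled points have an edgeR adjusted p under 0.05, and dotted lines mark 4 and 6. All 8 points right of 6 lie below 0, and 12 of the 20 left of 4 are filled points above 0.

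Levels were compared between genes per kb of annotated exon. Over the 8 libraries Mrpl45 had the highest mean level, with 41.4 CPM per kb in the libraries labelled KO and 54.5 in those labelled WT. Mrpl54 followed with 43.9 CPM per kb in the libraries labelled KO and 19.2 in those labelled WT, and Mrpl52, found only in mitochondria, with 29.0 and 32.3 CPM per kb in the libraries labelled KO and WT. The highest of the small subunit were Mrps12 (30.9 CPM per kb in KO, 17.3 in WT), Mrps7 (22.8 in KO, 21.1 in WT) and Mrps18a (12.7 in KO, 24.7 in WT). Mrpl52 and Mrps7, which has a bacterial counterpart, did not pass (log2 differences -0.15 and 0.11, edgeR adjusted p = 0.392 and 0.432). Exon length is the union over all annotated isoforms, so a gene with a rare long isoform is given too low a level.

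The promoters of the genes were searched because nuclear respiratory factor 1 (NRF1), ETS-family factors such as GABPA and YY1 are known to control genes of mitochondrial proteins. RefSeq promoter windows (GRCm38.p6, 250 bases before to 50 after a start) matched 69 of the 78 genes, with 75 windows. The NRF1 motif has 10 letters, which both of its matches printed here show (the fifth of them may be any base). The other letters searched on both strands were CCGGAAG for ETS factors, AAGATGGCG for YY1, CACGTG for the E-box and TATAAA for TATA. No match of a motif shared bases with a match of another in these windows. Printed below are 4 promoters. Those of a stalk gene and of the gene of largest difference in the large subunit, both higher, show NRF1 letters. That of the gene that fell most shows ETS letters, and that of a gene that did not pass shows YY1 letters. Elsewhere in the searched windows, outside the printed bases, Mrpl57 also held ETS letters and Mrps18a also held YY1 letters. Each line gives the 150 bases before the start, 5′ to 3′ on the gene's strand, with the motif match in capitals; the matches in Mrpl57 and Mrps11 lie on the other strand.
Mrpl12 (chr11:120484487-120484636, plus strand): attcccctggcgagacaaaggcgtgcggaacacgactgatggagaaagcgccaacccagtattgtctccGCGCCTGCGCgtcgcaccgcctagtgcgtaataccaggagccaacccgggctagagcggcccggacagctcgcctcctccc
Mrpl57 (chr14:57826089-57826238, plus strand): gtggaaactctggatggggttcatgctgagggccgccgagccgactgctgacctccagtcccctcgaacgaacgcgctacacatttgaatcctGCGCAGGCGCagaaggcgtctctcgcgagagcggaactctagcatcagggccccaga
Mrps18a (chr17:46110854-46111003, plus strand): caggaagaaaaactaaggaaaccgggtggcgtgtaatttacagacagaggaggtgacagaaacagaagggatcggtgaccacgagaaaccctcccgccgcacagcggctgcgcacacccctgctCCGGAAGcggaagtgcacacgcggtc
Mrps11 (chr7:78782981-78783130, plus strand): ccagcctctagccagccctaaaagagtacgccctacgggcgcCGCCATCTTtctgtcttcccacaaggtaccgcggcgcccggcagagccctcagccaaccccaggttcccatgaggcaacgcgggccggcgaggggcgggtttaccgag

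The NRF1 letters were in 17.3% of the 75 windows, against 6.60% of the windows of protein-coding genes and 4.60% of all promoters of the same length. ETS letters were in 34.7%, against 11.9% and 8.86%, and YY1 letters in 10.7%, against 1.93% and 1.40%. The E-box was in 9.33%, against 8.03% and 7.15%, and TATA in 6.67%, against 12.2% and 13.6%. In all, 41 of the 69 genes held at least 1 of the first 3 motifs. By direction, NRF1 letters were in 12.1% of windows of genes that were higher, 28.6% of those that were lower and 20.6% of those that did not pass. For ETS letters the shares were 36.4%, 28.6% and 32.4%, and for YY1 letters 3.03%, 28.6% and 14.7%, in the same order. There were 33, 7 and 34 such windows, so that 1 window moves the share of the lower genes by a large step. These matches are descriptions and not binding sites, and the shares were not tested. Mrps11 and Mrpl46 are divergent neighbours on chromosome 7 whose exons share 173 bases, and neither passed, with log2 differences of 0.05 and 0.09.

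The transcripts of factors known to act on such promoters were measured in the same libraries. Of 10 regulators of mitochondrial biogenesis, 6 were higher and 1 lower, and the median log2 difference was 0.38. As background, 31.0% of all protein-coding genes tested were higher and 29.8% lower. For protein-coding genes with a mean log2 CPM from 4 to 6 the shares were 47.0% and 19.8%, with a median of 0.28. Whether these regulators differ from that background was not tested. Mycn, a MYC family gene that drives growth, averaged 65.9 ± 10.7 CPM in the libraries labelled KO and 5.9 ± 0.529 CPM in those labelled WT (SD, n = 4 each), a log2 difference of 3.48 (SE 0.151, edgeR adjusted p = 9.21e-09). Yy1 rose by 1.08 (edgeR adjusted p = 5.06e-06), Nrf1 by 0.60 (edgeR adjusted p = 0.00184) and Gabpa by 0.34 (edgeR adjusted p = 0.0141). Myc did not pass, at a log2 difference of -1.28 (edgeR adjusted p = 0.0577). Ppargc1a, a coactivator of mitochondrial genes, fell by 1.72 on the log2 scale and was low in both groups, at 1.04 ± 0.329 and 3.42 ± 1.35 CPM (SD, n = 4 each) in the libraries labelled KO and WT.

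Mitochondrial ribosome proteins whose symbols fall outside the rule were all higher. They were Dap3, Chchd1, Aurkaip1, Ptcd3 and Gadd45gip1, and 5 of 5 passed, with log2 differences from 0.53 to 1.05. Aurkaip1 averaged 85.2 ± 10.3 CPM in the libraries labelled KO and 41.3 ± 7.25 CPM in those labelled WT (SD, n = 4 each), the highest difference of the 5, and Ptcd3 rose by 0.85. Of 25 assembly factors, 11 were higher (44.0%) and 1 lower (4.00%), and the median was 0.31. Among all protein-coding genes tested, 31.0% were higher and 29.8% lower. The RNA helicase gene Ddx28 rose by 1.80 and Mpv17l2 by 1.45, and the GTPase gene Noa1 fell by 0.76.

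In the other lists of mitochondrial gene expression more genes were higher than lower. The same held for protein-coding genes with a mean log2 CPM from 4 to 6, at 47.0% higher and 19.8% lower. Over all protein-coding genes the shares were 31.0% and 29.8%. The share higher was 53.8% for translation factors, 41.2% for tRNA synthetases and 72.7% for the genes acting on mitochondrial DNA. It was 59.5% for nuclear oxidative phosphorylation genes and 33.8% for cytoplasmic ribosomal protein genes. Of 13 translation factors, 7 were higher, 0 lower (edgeR, as above) and 6 did not pass, and the elongation factor genes Gfm1 and Guf1 rose by 0.97 and 0.63. Of 17 mitochondrial tRNA synthetases, 7 were higher, 0 lower and 10 did not pass, and Pars2 and Tars2 rose by 1.11 and 0.84. Of 11 tested genes that copy, coat or transcribe mitochondrial DNA or hold its transcripts, 8 were higher, 1 lower and 2 did not pass. The helicase gene Twnk rose by 1.38 and Ssbp1, whose product binds single-stranded DNA, by 0.79, while Lrpprc, which stabilises mitochondrial mRNA, fell by 0.52 to 308 ± 27.3 CPM in the libraries labelled KO, against 443 ± 48.9 CPM in those labelled WT (SD, n = 4 each). Twnk and Mrpl43, which rose by 1.44, lie on opposite strands and share 33.4% of the exon bases of Mrpl43. Without strand, reads in the shared bases cannot be told apart. Of 80 nuclear oxidative phosphorylation genes, 47 of 79 tested were higher and 3 lower (median 0.42). Of 80 cytoplasmic ribosomal protein genes, 27 were higher and 3 lower (median 0.13). Differences between these lists, and from the background, were not tested.

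**Figure D5:**
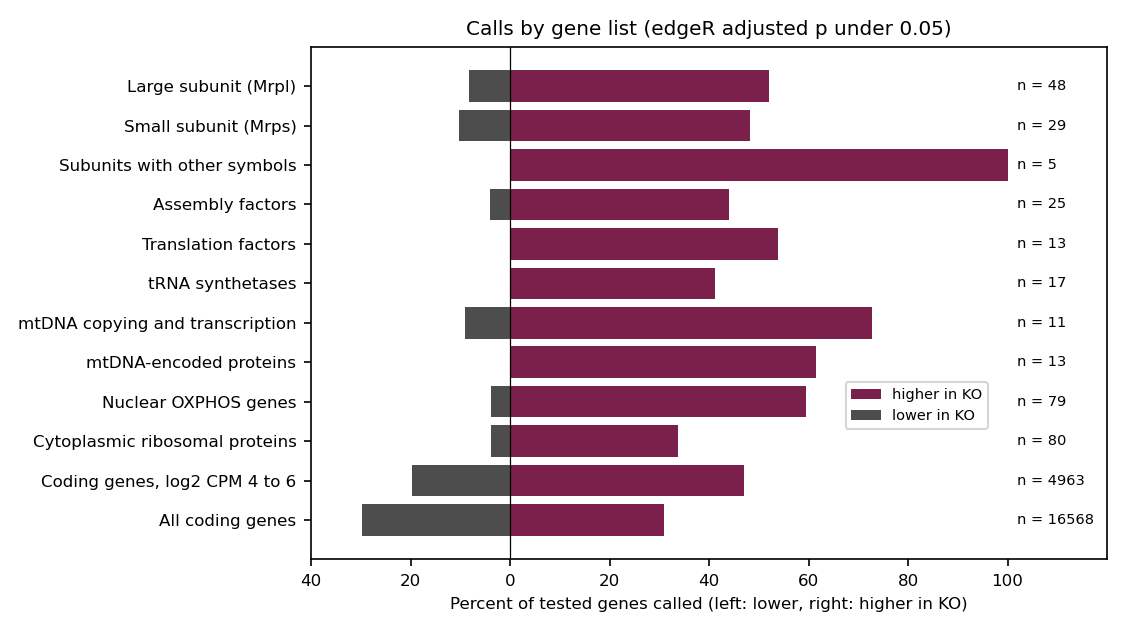
Percent of tested genes called higher (right of 0) or lower (left of 0) in KO by edgeR at an adjusted p under 0.05, for the 2 subunits, related gene lists and protein-coding genes as background, with the number tested. Higher calls reach 52.1% and 48.3% for the subunits, 33.8% for cytoplasmic ribosomal protein genes and 31.0% for all coding genes.

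No difference was detectable in the RNA part of the ribosome, measured first as a share of all counts with no scaling factor. The ribosomal RNA of the large subunit, mt-Rnr2, was 6.19% ± 0.487 of counts in the libraries labelled KO and 5.86% ± 0.576 in those labelled WT (SD, n = 4 each; exact two-sided permutation p = 0.457, adjusted p = 0.857 over 3 measures). That of the small subunit, mt-Rnr1, was 2.73% ± 0.23 in the libraries labelled KO and 2.62% ± 0.368 in those labelled WT (SD, n = 4 each; exact p = 0.686, adjusted p = 0.857). The ratio of mt-Rnr2 to mt-Rnr1 was 2.27 ± 0.159 in the libraries labelled KO and 2.25 ± 0.112 in those labelled WT (SD, n = 4 each; exact p = 0.857). Permutation of 4 against 4 libraries can give no p under 0.0286, and ribosomal RNA was depleted before sequencing. On the TMM scale used for the other genes, mt-Rnr2 had a log2 difference of 0.25 (SE 0.146, edgeR adjusted p = 0.166). That of mt-Rnr1 was 0.23 (SE 0.153, edgeR adjusted p = 0.22). Of the 13 proteins encoded in mitochondrial DNA, which this ribosome translates, 8 transcripts were higher, 0 lower (edgeR, as above) and 5 did not pass. Their log2 differences ran from -0.22 to 0.90. Among all protein-coding genes tested, 31.0% were higher and 29.8% lower. The 5 that did not pass, mt-Co2, mt-Atp8, mt-Atp6, mt-Co3 and mt-Nd4l, had few reads, with means of 0.804 to 6.39 CPM in the libraries labelled KO and 0.698 to 7.39 CPM in those labelled WT, and all negative differences were among them. The 8 that passed had means of 37.0 to 6233 CPM in the libraries labelled KO and 28.3 to 5032 CPM in those labelled WT. At an unadjusted p under 0.05 and with DESeq2, 0 of the 13 transcripts, of the translation factors and of the tRNA synthetases were lower. The 5 transcripts that did not pass lie between bases 7013 and 10173 of mitochondrial DNA. That stretch also holds mt-Nd3, the lowest of the 8 that passed. Whether the few reads there reflect the amount of transcript was not tested.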

How the data were processed

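Per the labels' protocols, RNA was extracted with TRIzol from frozen pellets, treated with DNase, and made into libraries with a kit that carries molecular identifiers. The authors deposited raw counts per gene and library, not normalized. Tools listed in the submitters' processing notes, without their roles, are STAR, featureCounts 1.5.0, Trim Galore, DESeq2 and edgeR, and the build is mm10. No source used here gives the strand setting, use of the identifiers or annotation release. Of 55401 rows, 55141 matched GENCODE M21 without the version, and 260 did not.

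The fit used edgeR 4.0.16 (R 4.3.3): filterByExpr, TMM scaling and a quasi-likelihood test with genotype as its only term, adjusted over 24005 genes at a threshold of 0.05. The SE is the log2 difference over the square root of F. The fit was tested on simulated data. DESeq2 1.42.0 and other settings served as alternatives. Genes named were, per subunit, the 5 higher and up to 3 lower with the lowest p and the 3 highest per kb, and, over all, the 3 largest and 2 smallest differences, 8 fixed by role, those under the filter, and up to 2 each way in each other list. Mrpl3, Mrpl37, Mrpl39, Mrpl43, Mrpl46, Mrpl47, Mrps5, Mrps11, Mrps30 and Mrps36, the mitochondrial transcripts that did not pass, and the promoters printed, were picked with their values in view. So were Nrf1, Gabpa and Myc. The genes and lists were chosen with earlier results of these data known, and gene sums and lists are described without tests.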

Additional observations from a re-analysis of the deposited data

Results flagged for a closer look

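Among 68 groups of 4 libraries examined, 7 held a library far from the other 3, where chance gives about 1 in 20. Mrpl10 stood at 12.3 CPM in KO 2, with 14.9 to 15.3 CPM in the others labelled KO, and at 7.55 CPM in WT 2, with 6.2 to 6.28 CPM in the others labelled WT. Mrpl51 was at 33.6 CPM in KO 1, with 28.5 to 28.7 CPM in the others, and Mrps16 at 19.3 CPM in KO 4, with 22.5 to 22.7 CPM in the others. Mrpl35 was at 58.0 CPM in WT 4, with 47.2 to 48.2 CPM in the others, and Mrpl52 at 43.0 CPM in WT 2, with 32.9 to 34.3 CPM in the others. The share of mt-Rnr2 was 5.01% in WT 2, with 6.02% to 6.22% in the others labelled WT.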

How the results depend on the processing

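Of the 39 higher genes, 28 kept their call under all 17 alternatives, as did 3 of the 7 lower genes; 11 and 4 lost it under at least 1, and no called gene was called the other way. The number of lower genes was 4 with DESeq2, 13 with ribosomal protein scaling and 17 with upper-quartile scaling. With a library left out it was 3 to 7 (4 without KO 4 or WT 1, 3 without WT 3). Higher genes numbered 40 with DESeq2, 29 with ribosomal protein scaling, 28 with upper-quartile scaling and 36 to 40 with a library left out. Large-subunit lower genes were 1 with DESeq2, 2 with RLE scaling or no low-count filter, 10 with ribosomal protein scaling, 13 with upper-quartile scaling and 1 to 4 with a library left out. Small-subunit higher genes were 9 with either of those scalings. The median difference of large-subunit genes was 0.25 with ribosomal protein scaling and 0.20 with upper-quartile scaling, and that of small-subunit genes 0.16 and 0.09, and 0.31 to 0.44 with a library left out. The KO minus WT difference in the log2 ratio of the subunits moved to 0.05 with equal weights and 0.06 by structure. This difference was 0.16 per kb and 0.15 to 0.22 with a library left out. The share of mitochondrial ribosomal RNA, 0.444 percentage points higher in the libraries labelled KO (exact permutation p = 0.514), was -0.0169 without WT 2 and up to 0.663 without another library. Of the 31 genes that did not pass, 12 gained a call under at least 1 of the 17 alternatives, and 19 gained none. With upper-quartile scaling Mrpl3, Mrpl37, Mrpl39, Mrpl52 and Mrps5 were called lower. Mrpl52 was then at -0.39 (edgeR adjusted p = 0.0266). Of the named genes that did not pass, Mrpl11 (-0.02), Mrps18b (-0.13) and Mrps7 (-0.12) turned sign with upper-quartile scaling, and Mrps18b (-0.07) and Mrps7 (-0.06) with ribosomal protein scaling. Mrpl27 and Mrpl35, both at -0.00, were positive with DESeq2 (0.07 and 0.06), RLE scaling (0.02 each), no low-count filter (0.04 each), and the replicate block (0.00 each), and of either sign with a library left out (-0.09 to 0.15 and -0.03 to 0.09). With the replicate number as a block, 36 genes were higher and 6 lower; same-numbered libraries correlated at 0.148, -0.213, -0.115 and 0.015 in their deviations from the group means, so not every pair passed 0.1 and the numbers were not taken to pair them. KO 1 and WT 1, the pair at 0.148, also share a number in their library names, whose meaning no label gives. The causes were not tested.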
